A study of Mus musculus with 27 samples.

Results

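The secreted Wnt ligands, their Frizzled receptors and 3 families of secreted modulators were followed in hepatic stellate cells (HSCs) of the mouse liver before and after toxic injury. Members were the protein-coding genes whose symbols consist of Wnt, Fzd, Sfrp, Dkk or Rspo and a number, with or without a final a or b. This gave 41 of the 53379 genes in the count table, namely 19 Wnt ligands, 10 Frizzleds, 4 secreted Frizzled-related proteins (Sfrp), 4 Dickkopf genes (Dkk) and 4 R-spondins (Rspo). RNA was sequenced from 27 libraries of HSCs that were sorted from male Balb/c mice by the ultraviolet fluorescence of their retinoid and were not cultured. Healthy mice (4 libraries) were untreated and 10 to 12 weeks old. Acute groups came from mice of 10 to 12 weeks given 1 intraperitoneal injection of carbon tetrachloride (CCl4), a toxin that kills hepatocytes, and collected 24 h (3 libraries), 72 h (4 libraries) or 7 d (4 libraries) later. Chronic groups came from mice that entered a course of 8 injections over 4 weeks at 8 to 10 weeks of age and were collected 24 h, 72 h or 14 d after the last one, with 4 libraries each. Every injected mouse received 0.5 µL of CCl4 per g of body weight in mineral oil, and healthy mice received neither CCl4 nor oil, so the vehicle and the toxin cannot be told apart. Sorting by retinoid takes the cells that still hold it, which limits what the injured groups can represent.

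Wnt proteins are lipid-modified, short-range signals that bind the cysteine-rich domain of Frizzled receptors. With the co-receptors Lrp5 and Lrp6 they stabilise beta-catenin, the canonical branch, and with Ror or Ryk receptors they act on the cytoskeleton and calcium. R-spondins bind Lgr receptors and keep Frizzleds on the cell surface by holding off the ligases Znrf3 and Rnf43, Sfrp proteins bind Wnts outside the cell, and most Dickkopf proteins block Lrp5 and Lrp6. In the liver, Wnt2 and Wnt9b of endothelial cells and Rspo3 are known as signals for the metabolic zonation of hepatocytes around the central vein.

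Values are counts per gene or CPM, a gene's count per M counts of its library, with library sizes scaled by TMM, a trimmed mean of log ratios between libraries. A gene was called when edgeR's quasi-likelihood test gave a Benjamini-Hochberg adjusted p below 0.05 over all 18758 genes tested together with a change of more than 2-fold, and errors of log2 fold changes are standard errors (SE). Total counts ran from 6.31 M to 13.1 M per library. All 4 chronic 14 d libraries, and replicates 1 and 2 at both earlier chronic times, were shallower (7.58 M at most) than the others, which started at 10.8 M. For chronic 14 d against healthy, depth and group therefore cannot be told apart from those 2 groups alone. All 10 stellate cell markers looked at were detected in every group, with summed levels of 13349 to 33396 CPM per library. The group median of the sum was lower after injury. It was 32206 CPM without injury, 15302 CPM at chronic 24 h, and between 14486 (acute 72 h) and 24813 CPM (acute 24 h) over all injured groups. Healthy replicate 3, at 19726 CPM, lay within the ranges of the acute 24 h, chronic 72 h and chronic 14 d libraries. Against healthy, 5 of the 10 markers were called lower and 1 higher at chronic 24 h. At chronic 72 h 4 were lower, at chronic 14 d 1, and at each acute time 3, with 0 higher. Of these markers, Lrat, which esterifies retinol for storage, stood at 1792 CPM ± 784 (SD, n = 4) without injury. It had 1086 CPM ± 140 (n = 4) at chronic 24 h and was not called. The pericyte gene Rgs5 fell from 3249 CPM ± 247 to 773 ± 129 between these groups, and the guidance protein gene Reln from 2615 ± 474 to 718 ± 111, whereas the intermediate filament gene Des had 536 ± 61.8 and 711 ± 101. As references for activation, Acta2, which encodes smooth muscle actin, went from 3.12 CPM ± 2.69 in healthy to 1543 ± 1061 in chronic 24 h libraries, and Col1a1, which encodes a chain of type I collagen, from 230 ± 74.8 to 5641 ± 1149. RNA of other cells was present too. The summed level of 13 endothelial markers ran from 65.8 CPM in acute 72 h replicate 3 to 911 CPM in acute 7 d replicate 4, and that of 10 hepatocyte markers from 59.8 to 6571 CPM. The sums of the other lists ran from 147 to 3028 CPM for 11 macrophage markers and from 55.8 to 4791 CPM for 6 cholangiocyte markers. They ran from 114 to 563 CPM for 4 vascular smooth muscle markers. For 4 T and NK cell, 4 B cell and 4 neutrophil markers they reached 16.3, 38.0 and 47.6 CPM. In such bulk libraries, fewer cells of a type and less RNA per cell cannot be told apart. Nothing in the labels says more of the replicates than that they are separate samples, and the methods call each repeat an individual experiment.

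Of the 41 members, 26 had enough counts to be tested, 9 of them Wnt ligands, 9 Frizzleds, 4 Sfrp genes, 3 R-spondins and 1 Dickkopf gene. The other 15 had no more than 9 counts in any library. These were Wnt1, Wnt3, Wnt3a, Wnt7a, Wnt7b, Wnt8a, Wnt8b, Wnt10a, Wnt10b, Wnt16, Fzd10, Dkk1 and Dkk2, together with Dkk4 and Rspo4, which had no count in any of the 27 libraries. At this depth such low transcripts were not measurable, which does not show that they are absent. Of the 26 tested members 21 were called in at least 1 of 9 comparisons, and Wnt2b, Wnt9a, Fzd3, Fzd9 and Sfrp4 in none.

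The promoters of Wnt5b, Wnt11 and Wnt6, which were all called higher at chronic 72 h, are shown because they belong to ligands that the results turn on, and not for any binding measured there. Each is the stretch of 250 bases before the RefSeq start of the gene on GRCm38.p6, read 5′ to 3′ on the strand of the gene. Wnt5b lies at chr6:119432531-119544347 on the minus strand, with the printed bases at chr6:119544348-119544597. Wnt11 lies at chr7:98835112-98855195 on the plus strand, with the printed bases at chr7:98834862-98835111. Wnt6 lies at chr1:74771892-74785322 on the plus strand, with the printed bases at chr1:74771642-74771891. Capitals mark a match to 1 of 3 motifs, the AP-1 motif TGANTCA in Wnt5b and the TCF/LEF motif CTTTGAT, on the opposite strand, in Wnt11.
Wnt5b: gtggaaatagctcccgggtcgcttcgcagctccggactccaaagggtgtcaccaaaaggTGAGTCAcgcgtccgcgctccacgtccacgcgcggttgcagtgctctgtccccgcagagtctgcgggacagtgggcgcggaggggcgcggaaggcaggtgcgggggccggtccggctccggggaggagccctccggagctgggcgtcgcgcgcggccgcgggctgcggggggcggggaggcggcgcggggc
Wnt11: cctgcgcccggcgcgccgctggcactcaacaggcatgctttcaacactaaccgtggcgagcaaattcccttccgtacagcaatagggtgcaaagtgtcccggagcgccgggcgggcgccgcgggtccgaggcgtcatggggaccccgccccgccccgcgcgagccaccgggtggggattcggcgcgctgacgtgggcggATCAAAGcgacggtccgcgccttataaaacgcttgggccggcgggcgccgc
Wnt6: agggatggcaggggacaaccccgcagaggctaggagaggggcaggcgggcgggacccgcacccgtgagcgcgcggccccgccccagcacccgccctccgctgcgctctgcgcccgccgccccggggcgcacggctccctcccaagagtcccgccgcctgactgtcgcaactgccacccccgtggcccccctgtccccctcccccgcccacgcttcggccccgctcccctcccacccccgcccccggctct
The third motif was the TEAD motif GGAATG, and the 3 were chosen after the data had been seen. Both strands were searched in the promoters of the 27 members that RefSeq's table held, 13 of which were called at least once. The AP-1 match of Wnt5b, which ends 185 bases before the start, was the only one for AP-1, the TCF/LEF match of Wnt11, at 45 bases before the start, the only one for TCF/LEF, and no member held GGAATG. Over 32851 promoters of the table, 6.75% held TGANTCA, 3.21% CTTTGAT and 12.6% GGAATG. Such a match is a run of letters and not a site.

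After injury, members of every family were called, some higher and some lower. In chronic 24 h against healthy, 9 of the 26 tested members were called, where 19.3% of all tested genes were called. Wnt5a, Wnt5b, Wnt11, Fzd1, Fzd2 and Dkk3 were higher (6 members, beside 11.2% of all genes) and Fzd5, Fzd8 and Rspo3 were lower (3 members, beside 8.11%). At chronic 72 h 9 members were called (12.1% of all genes), with Wnt5a, Wnt5b, Wnt6, Wnt11, Fzd2, Sfrp1 and Dkk3 higher (7 members, beside 7.88%) and Fzd5 and Rspo3 lower (2 members, beside 4.2%). At chronic 14 d 5 were called (5.72% of all genes), all of them higher (beside 4.55%), which were Wnt5a, Wnt5b, Wnt6, Wnt11 and Dkk3, and 0 were lower (beside 1.17%). In acute 24 h libraries 7 members were called (22% of all genes), with Fzd1 higher (1 member, beside 9.41%) and Wnt2, Wnt5a, Wnt6, Fzd2, Fzd8 and Sfrp1 lower (6 members, beside 12.5%). At acute 72 h 4 were called (12.6% of all genes), Wnt5a, Fzd2 and Dkk3 higher (3 members, beside 8.23%) and Fzd8 lower (1 member, beside 4.33%). At acute 7 d 13 were called (14.9% of all genes), Wnt5a, Wnt5b, Wnt6, Wnt11, Fzd1, Fzd2, Fzd6, Fzd7, Sfrp5 and Dkk3 higher (10 members, beside 9.23%) and Fzd5, Fzd8 and Rspo3 lower (3 members, beside 5.64%). Sfrp5 had enough counts to be tested only through the acute 7 d libraries, so its calls there are not independent of that selection. The 6 comparisons against healthy share the healthy libraries, so their calls are not independent of each other. Between injured groups, 5 members were called in chronic 14 d against chronic 24 h (12.8% of all genes), with 2 higher (beside 6.65%) and 3 lower (beside 6.11%). In acute 7 d against acute 24 h 18 were called (27% of all genes), with 16 higher (beside 17.8%) and 2 lower (beside 9.24%). Of these, Rspo2 and Sfrp5 had enough counts to be tested only through the acute 7 d libraries, so their calls are not independent of that selection. In chronic 24 h against acute 24 h 13 were called (13.9% of all genes), with 11 higher (beside 10.9%) and 2 lower (beside 3.05%). Other cell types shifted in acute 7 d against acute 24 h too, with 10 of 11 macrophage, 8 of 10 hepatocyte, 3 of 6 cholangiocyte, 3 of 5 tested mesothelium, 7 of 13 endothelial, 7 of 8 portal fibroblast and 4 of 4 B cell markers higher, and their part in the member changes was not tested. These comparisons in turn share the acute 24 h or the chronic 24 h libraries. The median log2 fold change of the tested members was 0.71 in chronic 24 h against healthy, beside -0.03 for all genes, and -0.83 in acute 24 h against healthy, beside -0.12 for all genes.

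**Figure D1:**
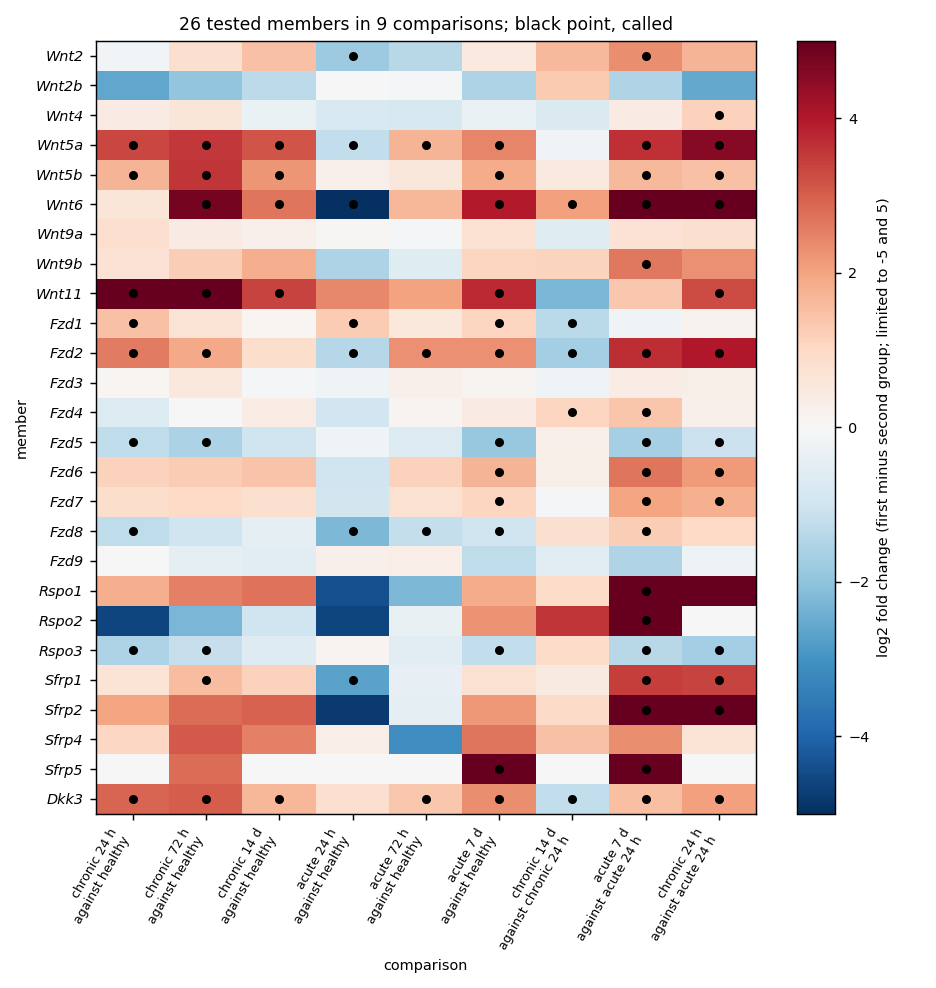
Log2 fold changes (colour, limited to -5 and 5) of the 26 tested members (rows) in 9 comparisons (columns), with a black point where the member was called. The rows of Wnt5a, Fzd2 and Dkk3 hold 8 points each, and the acute 7 d against acute 24 h column holds the most, 18. Fitted values of genes at 0 in 1 group (Wnt6, Rspo1, Rspo2, Sfrp2 and Sfrp5) depend on the prior count and are no bound.

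Levels of different genes were compared as CPM per kb of merged exons. In healthy HSCs the highest members were Rspo3 with 184 CPM per kb, Fzd1 with 63.7, Fzd8 with 41.7, Wnt4 with 40.1 and Dkk3 with 25.3. In chronic 24 h libraries Dkk3 was first with 189 CPM per kb, followed by Fzd1 with 176, and Rspo3 had 62.3. The summed level of the 19 Wnt ligands was 47.3 CPM per kb ± 12.9 (SD, n = 4) in healthy, 27.5 ± 9.59 (n = 3) in acute 24 h, 73.6 ± 20.1 (n = 4) in chronic 24 h and 96.8, with a range of 69.9 to 118 (n = 4), in chronic 72 h libraries. Wnt4 made up most of it in every group. Its share was 83.5% ± 7.17 (n = 4) in healthy, 84.3% ± 10.7 (n = 3) in acute 24 h and 55.1% ± 2.11 (n = 4) in chronic 14 d libraries, and the chronic 14 d shares, 52.4% to 57.3%, lay below all healthy ones, 76.9% to 93.7%. Wnt5a made up 2.52% ± 1.68 in healthy, 16.2% ± 8.40 in chronic 24 h and 16.2% ± 3.22 in chronic 14 d libraries (n = 4 each). Among the Frizzleds, Fzd1 and Fzd8 together held most of the summed level in healthy cells, with 50.2% ± 1.31 and 32.7% ± 2.32 (n = 4). In acute 24 h libraries Fzd1 held 87.6% ± 3.12 and Fzd8 5.31% ± 1.57 (n = 3), and in chronic 14 d libraries 52.6% ± 0.427 and 22.9% ± 3.43 (n = 4). The acute 24 h and healthy shares of both receptors did not overlap.

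**Figure D2:**
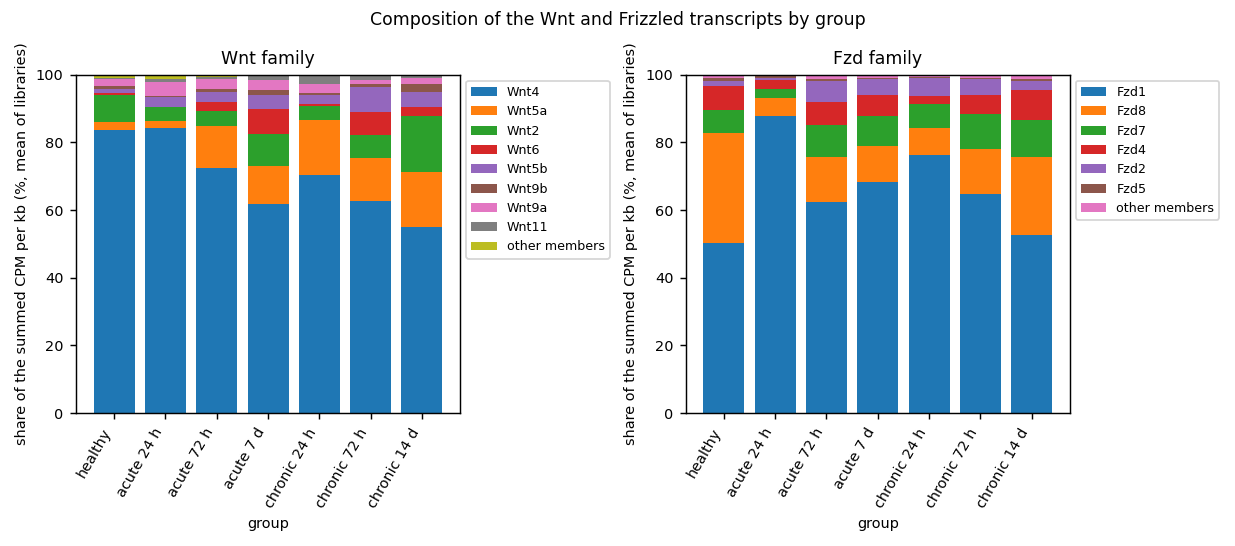
Mean share (%) of each member in the summed CPM per kb of the Wnt family (left) and the Frizzled family (right) in the 7 groups. Wnt4 fills 83.5% of the healthy Wnt bar and 55.1% of the chronic 14 d bar, and Fzd1 fills 50.2% of the healthy and 87.6% of the acute 24 h Frizzled bar.

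Wnt5a, the classical ligand of the beta-catenin-independent branch, was the ligand with the most calls. Its gene lies at chr14:28504750-28527448 on the plus strand. The 4 healthy libraries held 6.34, 13.1, 10.0 and 4.15 CPM and the 4 chronic 24 h libraries 67.7, 62.7, 99.3 and 107 CPM. Chronic 72 h libraries had 72.8, 68.2, 149 and 100 CPM and chronic 14 d libraries 68.0, 59.8, 110 and 59.0 CPM. All 12 chronic libraries thus lay far above all healthy ones. At 14 d after the last injection 2 of the 4 libraries lay below the lowest library of the earlier chronic times, 62.7 CPM. The log2 fold change against healthy was 3.32 ± 0.38 (SE) at chronic 24 h (adjusted p 4.81e-07), 3.54 ± 0.38 at chronic 72 h (adjusted p 7.57e-07) and 3.14 ± 0.37 at chronic 14 d (adjusted p 1.3e-05). In chronic 14 d against chronic 24 h Wnt5a was not called. After 1 injection the course started in the other direction. Acute 24 h libraries held 3.91, 3.12 and 3.77 CPM, all below the lowest healthy library. Acute 72 h libraries held 17.4, 14.3, 43.7 and 33.4 CPM and acute 7 d libraries 45.0, 54.7, 36.2 and 45.1 CPM, all above the healthy ones. The log2 fold change against healthy was -1.22 ± 0.40 at acute 24 h (adjusted p 0.0222), 1.69 ± 0.36 at acute 72 h (adjusted p 0.00133) and 2.43 ± 0.36 at acute 7 d (adjusted p 3.68e-05). From acute 24 h to acute 7 d it was 3.65 ± 0.44 (adjusted p 1e-06), and 24 h after a chronic rather than a single injection it was 4.54 ± 0.45 (adjusted p 2.85e-07). The lower level at acute 24 h is the fragile one of these calls, since it was lost without healthy replicate 2 (log2 fold change -0.92, adjusted p 0.09), without healthy replicate 3 (adjusted p 0.053) and without any 1 of the 3 acute 24 h libraries (adjusted p 0.054 to 0.085). Depth moved with the level within the chronic groups, where the lower-depth libraries averaged 65.2 against 103 CPM at 24 h and 70.5 against 125 CPM at 72 h, so that the libraries of higher depth alone gave 3.63 and 3.93.

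Wnt5b, the close relative of Wnt5a, was low in healthy cells and highest at chronic 72 h. Healthy libraries held 1.18, 0.682, 2.52 and 1.73 CPM. Chronic 24 h libraries held 5.69, 5.90, 4.29 and 4.48 CPM, chronic 72 h libraries 16.4, 16.7, 19.4 and 21 CPM and chronic 14 d libraries 12.8, 7.36, 6.13 and 2.49 CPM. The first 2 of these groups lay above every healthy library, and the last overlapped with the healthy range by 1 library on each side. Log2 fold changes against healthy were 1.71 ± 0.42 (adjusted p 0.00329), 3.57 ± 0.44 (adjusted p 4.15e-06) and 2.22 ± 0.43 (adjusted p 0.00174) in that order. Acute 24 h libraries held 2.49, 2.08 and 0.877 CPM, acute 72 h libraries 1.77, 1.47, 2.19 and 3.79 CPM and acute 7 d libraries 4.60, 4.26, 5.71 and 7.96 CPM. Only the last of these differed from healthy by a call (1.87 ± 0.42, adjusted p 0.00232), and it was also higher than acute 24 h (1.63 ± 0.46, adjusted p 0.00681). Chronic 24 h exceeded acute 24 h by 1.48 ± 0.46 (adjusted p 0.0239), a call that was lost without acute 24 h replicate 2 (adjusted p 0.059) or 3 (adjusted p 0.12) and in the higher-depth libraries alone (1.23, adjusted p 0.12). Within its long span, Wnt5b shares 2963 bases with the gene Fbxl14 on the other strand. Whether strand was used in counting is not stated, so reads of the 2 genes may not be separable. Fbxl14 had 71.7 CPM in healthy, 64.4 in chronic 72 h and 58.7 in acute 7 d libraries and was called in none of the 9 comparisons.

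Wnt6 and Wnt11 were near 0 in healthy HSCs. For Wnt6, which is best known from epithelia, healthy libraries held 8, 4, 11 and 0 counts and all 3 acute 24 h libraries 0. Chronic 72 h libraries held 17.6, 7.71, 14.8 and 17.7 CPM and acute 7 d libraries 7.92, 7.78, 6.51 and 10.2 CPM, while no healthy library exceeded 0.926 CPM. Chronic 14 d libraries lay in between with 3.91, 1.97, 5.05 and 2.35 CPM. Chronic 24 h libraries held 1.35, 0.686, 0 and 1.20 CPM and acute 72 h libraries 1.06, 1.82, 2.76 and 1.01 CPM, neither of them called against healthy. Log2 fold changes against healthy were 4.79 ± 0.71 at chronic 72 h (adjusted p 5.74e-05), 3.95 ± 0.70 at acute 7 d (adjusted p 0.000293) and 2.67 ± 0.69 at chronic 14 d (adjusted p 0.0173). In chronic 14 d against chronic 24 h it was 2.06 ± 0.67 (adjusted p 0.0306). Both chronic 14 d calls rest on few counts. The one against healthy was lost without healthy replicate 2 (adjusted p 0.056), without chronic 14 d replicate 3 (adjusted p 0.055) and with depth class as a term (adjusted p 0.12). The one against chronic 24 h was lost without chronic 24 h replicate 2 or 3 and without chronic 14 d replicate 1 or 3 (adjusted p 0.061 to 0.083). Against the acute 24 h group, with its 0 counts, Wnt6 was called in each of 3 comparisons. Set against 3 counts over that group, its mean was at least 5.81-fold higher in healthy libraries (adjusted p 0.00712). The mean was at least 92.3-fold higher in acute 7 d (adjusted p 7.08e-06) and at least 9.21-fold higher in chronic 24 h libraries (adjusted p 0.00444).

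Wnt11, a ligand linked to cell movements in development, had 0, 4, 3 and 0 counts in the healthy libraries. Chronic 24 h libraries held 60, 119, 45 and 62 counts, or 8.98, 16.3, 3.94 and 4.95 CPM, and chronic 72 h libraries 4.26, 2.85, 9.02 and 8.61 CPM. Every library of these 2 groups lay above every healthy one. The log2 fold changes against healthy were 5.65 ± 1.03 (adjusted p 0.000195) and 5.20 ± 1.02 (adjusted p 0.000778), which are imprecise because 7 counts in all stand for the healthy group. Chronic 14 d libraries held 2.70, 2.89, 0 and 1.47 CPM (3.38 ± 1.03, adjusted p 0.0423) and overlapped with healthy. That call was lost without 3 of the 4 healthy libraries (replicates 1, 3 and 4) and 3 of the 4 chronic 14 d libraries (replicates 1, 2 and 4), each in turn (adjusted p 0.051 to 0.11), and with depth class as a term (adjusted p 0.17). Acute 24 h libraries held 1.51, 0.607 and 0.526 CPM, acute 72 h libraries 1.33, 0, 0.406 and 0.928 CPM and acute 7 d libraries 3.47, 1.07, 3.22 and 1.22 CPM. Of these, acute 7 d was called against healthy (3.73 ± 1.01, adjusted p 0.00926). Chronic 24 h was higher than acute 24 h by 3.25 ± 0.97 (adjusted p 0.0183), a call that was lost without acute 24 h replicate 2 (adjusted p 0.084) or 3 (adjusted p 0.075) and without chronic 24 h replicate 2 (adjusted p 0.057), and in the higher-depth libraries alone (2.29, adjusted p 0.13). Depth moved with Wnt11 in opposite ways, with 12.6 CPM in the lower-depth and 4.45 in the higher-depth libraries at chronic 24 h and 3.56 and 8.81 CPM at chronic 72 h.

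**Figure D3:**
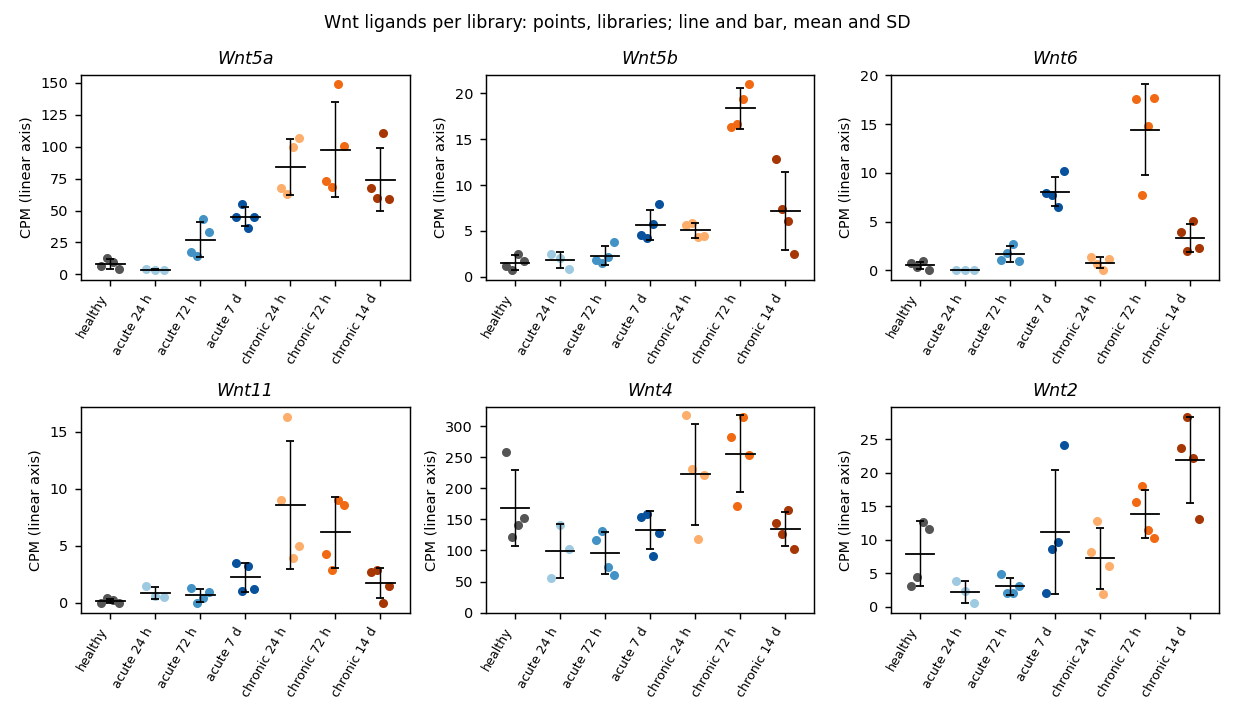
CPM (linear axes) of 6 Wnt ligands in each of the 27 libraries by group, with the mean as a line and the SD as a bar. All 12 chronic libraries of Wnt5a sit between 59.0 and 149 CPM and all 4 healthy ones between 4.15 and 13.1, and Wnt6 is highest at chronic 72 h, from 7.71 to 17.7 CPM, and at acute 7 d, from 6.51 to 10.2 CPM.

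A list of 8 portal fibroblast markers was highest at chronic 72 h, as were Wnt5b and Wnt6, and its sum lay on the same side of the healthy range as Wnt5a in all 6 injured groups. Its summed level was 150 to 246 CPM in healthy, 83.7 to 141 in acute 24 h, 248 to 589 in acute 72 h, 610 to 804 in acute 7 d, 469 to 649 in chronic 24 h, 728 to 1276 in chronic 72 h and 310 to 530 in chronic 14 d libraries. All 8 genes of that list were detected in every group, and against healthy 4 were called higher at chronic 24 h, 7 at chronic 72 h, 4 at chronic 14 d, 3 at acute 72 h and 5 at acute 7 d. Called lower were 3 of them at acute 24 h, 1 at chronic 24 h and 1 at acute 72 h. The list and the other ligands parted at chronic 24 h, where Wnt6 was not called, and at acute 72 h, where neither Wnt5b nor Wnt6 was called. The sum of the 6 mesothelium markers was 6.07 to 17.0 CPM in healthy and 97.3 to 148 CPM in chronic 72 h libraries. Of the 5 that were tested, only 1 was called higher there. Within acute 72 h, replicates 3 and 4 held more Wnt5a (43.7 and 33.4 CPM) than replicates 1 and 2 (17.4 and 14.3 CPM), and their portal fibroblast sums were 489 and 589 against 298 and 248 CPM. At chronic 72 h the sums were 1045 and 1276 CPM in replicates 3 and 4 and 741 and 728 CPM in the lower-depth replicates 1 and 2. At chronic 24 h they were 649 and 583 against 469 and 582 CPM. Wnt5a was also lower in replicates 1 and 2 at both times, so depth and these markers cannot be told apart there. The part of these cells in the ligand levels was not tested.

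The remaining ligands had 1 call against healthy between them. Wnt4, the most abundant Wnt of HSCs, held 258, 121, 142 and 152 CPM in healthy, 317, 232, 119 and 221 CPM in chronic 24 h and 55.2, 142 and 102 CPM in acute 24 h libraries. It overlapped between all these groups and was called in only 1 comparison, as 1.16 ± 0.35 higher in chronic 24 h than in acute 24 h (adjusted p 0.0211). Without acute 24 h replicate 1 (log2 fold change 0.87, adjusted p 0.13) or 3 (adjusted p 0.056), without chronic 24 h replicate 1 (0.94, adjusted p 0.071) and in the higher-depth libraries alone (0.75, adjusted p 0.26) that call was lost. In the other groups Wnt4 ranged from 59.7 to 131 CPM (acute 72 h), 91.5 to 159 (acute 7 d), 172 to 315 (chronic 72 h) and 102 to 166 CPM (chronic 14 d). Wnt2 and Wnt9b are ligands known from liver endothelial cells. Wnt2 held 3.17, 4.38, 12.6 and 11.6 CPM in healthy, 3.82, 2.34 and 0.526 CPM in acute 24 h, 2.10, 8.68, 9.65 and 24.2 CPM in acute 7 d and 23.7, 28.4, 22.2 and 13.1 CPM in chronic 14 d libraries. It was called lower at acute 24 h than in healthy (-1.83 ± 0.71, adjusted p 0.0487) and higher at acute 7 d than at acute 24 h (2.32 ± 0.72, adjusted p 0.0123), with overlapping libraries in both. The first call was lost without healthy replicate 3 or 4 or acute 24 h replicate 2 or 3 (adjusted p 0.11 to 0.19), and the second without acute 24 h replicate 3 (adjusted p 0.066) or acute 7 d replicate 4 (adjusted p 0.067). Wnt9b held 0.356, 0.434 and 0.789 CPM in acute 24 h and 1.13, 4.10, 0.482 and 7.50 CPM in acute 7 d libraries (2.62 ± 0.95, adjusted p 0.0311), a call that was lost without any 1 acute 24 h library and without acute 7 d replicate 2 or 4 (adjusted p 0.052 to 0.13). The endothelial list moved with both ligands between some groups and not others. Its sum was 230 to 740 CPM in healthy, 226 to 287 in acute 24 h, 318 to 911 in acute 7 d and 588 to 859 CPM in chronic 14 d libraries, with 7 of the 13 markers called lower and 1 higher at acute 24 h against healthy, and the acute 7 d library highest in Wnt2 and Wnt9b was also the one highest in the list. At chronic 72 h the sum was 278 to 430 CPM, while Wnt2 held 15.7, 18.0, 11.4 and 10.3 CPM and Wnt9b 3.99, 5.14, 3.58 and 2.11 CPM, and at chronic 24 h the sum was 103 to 324 CPM, while Wnt2 held 8.23, 12.8, 1.84 and 6.15 CPM and Wnt9b 3.59, 3.43, 0.788 and 2.64 CPM. Neither ligand was called at these times. Acute 7 d replicate 4, highest of its group in Wnt2 and Wnt9b, also had the group's highest macrophage sum, 3028 CPM. Its cholangiocyte sum, 759 CPM, was the lowest of the group. The part of endothelial or other RNA in these levels was not tested. Wnt9a was found in all 27 libraries at 1.54 to 6.54 CPM, and Wnt2b in 19 libraries at up to 1.36 CPM, neither of them called.

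**Figure D4:**
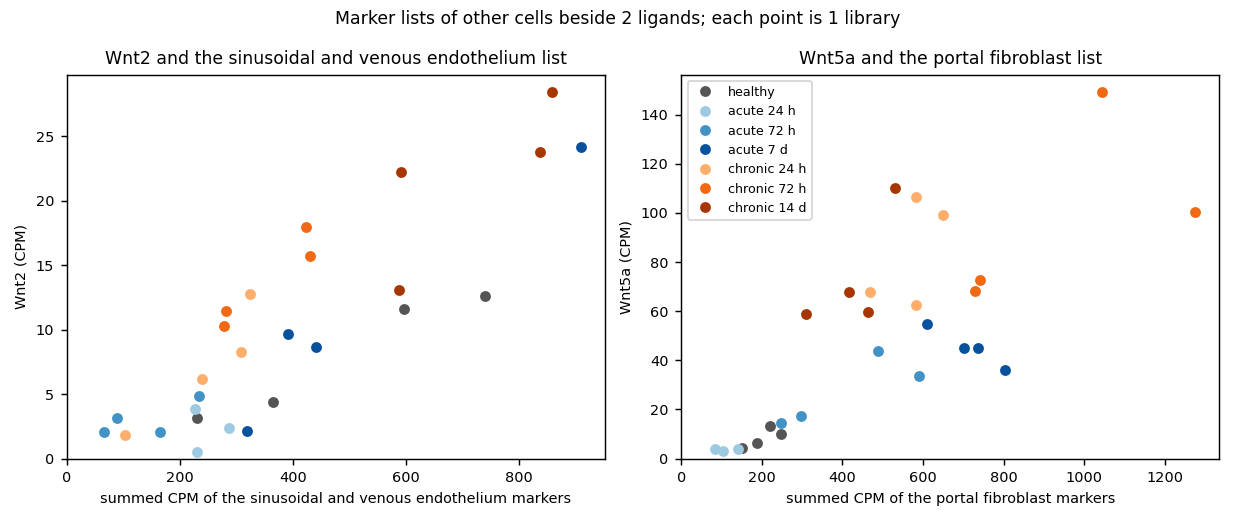
CPM of Wnt2 against the summed CPM of 13 endothelial markers (left) and of Wnt5a against that of 8 portal fibroblast markers (right), 1 point per library coloured by group on linear axes. The acute 7 d library with 24.2 CPM of Wnt2 has the highest endothelial sum, 911 CPM, and the 7 healthy and acute 24 h libraries sit at the lower left for Wnt5a.

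Among the receptors, Fzd1 was the most abundant Frizzled in every group. It held 242, 277, 289 and 261 CPM in healthy, 900, 492 and 547 CPM in acute 24 h and 1042, 602, 721 and 587 CPM in chronic 24 h libraries. Libraries taken 24 h after injury lay above all healthy ones, by 1.27 ± 0.23 on the log2 scale after 1 injection (adjusted p 0.000195) and by 1.46 ± 0.22 after 8 (adjusted p 2.21e-05). The acute change fell below 2-fold without acute 24 h replicate 1 (0.96, adjusted p 0.0048). Acute 72 h libraries held 317, 238, 470 and 505 CPM and acute 7 d libraries 613, 613, 560 and 486 CPM, and only the latter were called (1.09 ± 0.22, adjusted p 0.000923). Chronic 72 h libraries held 427, 355, 499 and 448 CPM and chronic 14 d libraries 279, 272, 330 and 278 CPM. The latter overlapped with healthy and were lower than chronic 24 h by -1.35 ± 0.22 (adjusted p 0.000121).

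Fzd2, a receptor that can bind Wnt5a, was lower at acute 24 h and higher at the later acute and the early chronic times. Healthy libraries held 7.52, 9.35, 8.92 and 2.68 CPM, acute 24 h libraries 3.47, 2.17 and 2.28 CPM, acute 72 h libraries 24.2, 18.2, 47.4 and 48.8 CPM and acute 7 d libraries 40.7, 41.7, 31.0 and 23.9 CPM. The first 2 groups overlapped through healthy replicate 4, and the later acute groups lay above both. Log2 fold changes against healthy were -1.43 ± 0.40 at acute 24 h (adjusted p 0.00806), 2.28 ± 0.36 at acute 72 h (adjusted p 6.37e-05) and 2.27 ± 0.36 at acute 7 d (adjusted p 6.12e-05), and acute 7 d exceeded acute 24 h by 3.70 ± 0.43 (adjusted p 7.52e-07). Chronic 24 h libraries held 42.8, 41.4, 46.1 and 41.6 CPM, the tightest group, and chronic 72 h libraries 24.0, 18.6, 30.1 and 33.6 CPM. Both were above healthy, by 2.59 ± 0.36 (adjusted p 6.92e-06) and 1.90 ± 0.35 (adjusted p 0.000434), and chronic 24 h was above acute 24 h by 4.02 ± 0.44 (adjusted p 9.15e-07). Chronic 14 d libraries, with 15.8, 16.7, 13.1 and 6.75 CPM, were lower than chronic 24 h by -1.71 ± 0.35 (adjusted p 0.000976) and were not called against healthy.

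Fzd8, the second receptor of healthy cells, went down after injury. It held 226, 231, 304 and 235 CPM in healthy libraries and 51.5, 55.8 and 49.5 CPM in acute 24 h libraries, a log2 fold change of -2.25 ± 0.20 (adjusted p 2.48e-08). Acute 72 h libraries held 110, 90.4, 108 and 125 CPM (-1.20 ± 0.17, adjusted p 2.5e-05) and acute 7 d libraries 93.1, 118, 155 and 130 CPM (-1.01 ± 0.17, adjusted p 0.000158). No library of these acute groups reached the lowest healthy one. The acute 7 d change is so close to 2-fold that it was below that limit without healthy replicate 3 (-0.90) or acute 7 d replicate 1 (-0.89) or 2 (-0.98). It was called higher at acute 7 d than at acute 24 h (1.25 ± 0.19, adjusted p 1.9e-05). Chronic 24 h libraries held 93.3, 96.7, 123 and 102 CPM (-1.26 ± 0.17, adjusted p 5.72e-06), chronic 72 h libraries 160, 113, 137 and 91.4 CPM and chronic 14 d libraries 211, 158, 186 and 161 CPM, the last 2 not called against healthy.

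Fzd5, a receptor at a lower level, also went down. It shares 1512 bases with Gm38058 on the other strand (530 counts over all libraries, beside 1266 of Fzd5), and reads of the 2 may likewise not be separable. Healthy libraries held 10.6, 7.69, 8.67 and 4.50 CPM and chronic 24 h libraries 4.34, 3.29, 2.19 and 3.28 CPM (-1.27 ± 0.36, adjusted p 0.00963). Chronic 72 h libraries held 2.66, 2.28, 2.72 and 2.82 CPM (-1.58 ± 0.37, adjusted p 0.00335, and 0.053 in the higher-depth libraries alone) and acute 7 d libraries 1.45, 1.31, 2.01 and 3.75 CPM (-1.88 ± 0.37, adjusted p 0.00065), without overlap with healthy. Acute 24 h libraries held 6.58, 7.54 and 6.40 CPM, inside the healthy range, and stood above acute 7 d (log2 fold change of acute 7 d against acute 24 h -1.67 ± 0.39, adjusted p 0.00134). Against them chronic 24 h was lower by -1.07 ± 0.38 (adjusted p 0.0492), a call that was lost without any 1 acute 24 h library and without chronic 24 h replicate 2, 3 or 4 (adjusted p 0.073 to 0.14).

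Fzd4, Fzd6 and Fzd7 were lowest at acute 24 h. Fzd7 held 31.3, 42.8, 41.0 and 37.4 CPM in healthy, 18.7, 18.2 and 24.2 CPM in acute 24 h, 66.9, 69.8, 64.2 and 81.1 CPM in chronic 24 h and 78.8, 94.6, 71.1 and 75 CPM in acute 7 d libraries. These 4 groups did not overlap except for the last 2. It was higher at acute 7 d than in healthy (1.07 ± 0.23, adjusted p 0.00169) and, against acute 24 h, at acute 7 d (1.97 ± 0.26, adjusted p 4.17e-06) and chronic 24 h (1.79 ± 0.26, adjusted p 3.64e-05), and the first of these calls was below 2-fold without healthy replicate 1 or acute 7 d replicate 2 (0.98 for both). Fzd6 held 1.54, 2.24, 1.51 and 4.24 CPM in healthy, 1.60, 1.04 and 0.965 CPM in acute 24 h, 5.39, 3.29, 4.47 and 7.91 CPM in chronic 24 h and 9.69, 7.95, 6.27 and 6.81 CPM in acute 7 d libraries. The later groups lay above acute 24 h without overlap. Acute 7 d was higher than healthy by 1.68 ± 0.51 (adjusted p 0.0184) and higher than acute 24 h by 2.66 ± 0.60 (adjusted p 0.00108), and chronic 24 h higher than acute 24 h by 2.13 ± 0.59 (adjusted p 0.0118). Without healthy replicate 1 (adjusted p 0.058) or 3 (adjusted p 0.061) the first was lost, and without acute 24 h replicate 2 (adjusted p 0.057) or 3 (adjusted p 0.052) the last. Fzd4, a receptor of the endothelium and other cells, held 33.2, 28.2 and 33.0 CPM in acute 24 h and 71.1, 92.0, 84.0 and 81.4 CPM in acute 7 d libraries (1.38 ± 0.31, adjusted p 0.0012). It held 36.7, 29.8, 45.6 and 39.4 CPM in chronic 24 h and 49.1, 60.3, 118 and 88.5 CPM in chronic 14 d libraries (1.06 ± 0.28, adjusted p 0.00875), and that change was below 2-fold when chronic 24 h replicate 2 (0.96) or the third chronic 14 d library (0.85) was left out. At acute 72 h, replicates 3 and 4 held more of all 3 receptors than replicates 1 and 2, with 89.4 and 92.7 against 50.5 and 36.1 CPM of Fzd4, 8.04 and 9.36 against 2.12 and 1.90 CPM of Fzd6 and 85.8 and 79.6 against 48.8 and 41.8 CPM of Fzd7. Fzd3 (2.28 to 7.70 CPM) and Fzd9 (0.0866 to 1.46 CPM) were counted in all 27 libraries and never called.

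Rspo3, the only abundant R-spondin, had the highest level per kb of all members in healthy HSCs. Its gene lies at chr10:29452416-29535867 on the minus strand. Healthy libraries held 590, 539, 523 and 619 CPM and chronic 24 h libraries 216, 190, 214 and 150 CPM. Chronic 72 h libraries held 343, 266, 209 and 216 CPM and acute 7 d libraries 244, 217, 264 and 252 CPM. None of these 12 libraries reached the lowest healthy one. Log2 fold changes against healthy were -1.56 ± 0.16 at chronic 24 h (adjusted p 1.39e-07), -1.13 ± 0.16 at chronic 72 h (adjusted p 2.06e-05) and -1.22 ± 0.16 at acute 7 d (adjusted p 8.08e-06). At acute 24 h, with 662, 643 and 592 CPM, it was not called. Acute 72 h libraries, with 397, 356, 388 and 376 CPM, and chronic 14 d libraries, with 421, 262, 365 and 396 CPM, lay below all healthy ones without a call. Chronic 24 h was lower than acute 24 h by -1.72 ± 0.17 (adjusted p 2.53e-07) and acute 7 d lower than acute 24 h by -1.37 ± 0.17 (adjusted p 1.44e-06).

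Rspo1 and Rspo2 were at 0 in all 3 acute 24 h libraries. In acute 7 d libraries Rspo1 held 0, 9, 2 and 35 counts and Rspo2 24, 18, 18 and 6 counts. Set against 3 counts over the acute 24 h group, their means were at least 10.2-fold (adjusted p 0.0389) and 15.2-fold (adjusted p 0.0218) higher. Both calls were lost without any 1 acute 24 h library (adjusted p 0.064 to 0.097). Rspo2 had enough counts to be tested only through the acute 7 d libraries, so its call is not independent of that selection. DESeq2 did not call Rspo2 (adjusted p 0.056). The call of Rspo1 was also lost without acute 7 d replicate 4 (adjusted p 0.13), the library with the highest endothelial and macrophage sums. In the same groups the cholangiocyte sum was 87.3 to 104 CPM at acute 24 h and 759 (replicate 4) to 4791 CPM at acute 7 d, and the macrophage sum 147 to 197 and 709 to 3028 CPM. The mesothelium sum was 7.54 to 12.4 CPM at acute 24 h and 61.6, 84.5, 38.2 and 87.1 CPM in acute 7 d replicates 1 to 4. Their part in these 2 R-spondins, Wnt6 and Sfrp5 was not tested. Neither gene was called against healthy. Rspo1 had counts in 3 of 4 chronic 24 h, 4 of 4 chronic 72 h and 3 of 4 chronic 14 d libraries, at up to 3.94 CPM, and Rspo2 had no count in any chronic 24 h library.

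Dkk3, the Dickkopf member that differs most from the Lrp-blocking ones, was called higher in 5 of the 6 injured groups. Its gene lies at chr7:112116017-112159057 on the minus strand. Healthy libraries held 69.3, 78.2, 102 and 90.6 CPM, chronic 24 h libraries 755, 578, 634 and 566 CPM and chronic 72 h libraries 649, 502, 869 and 737 CPM. Chronic 14 d libraries held 269, 277, 311 and 232 CPM. The 12 chronic libraries lay above all healthy ones, with the 14 d group below both earlier groups. Log2 fold changes against healthy were 2.90 ± 0.18 (adjusted p 9.45e-11), 3.02 ± 0.18 (adjusted p 2.17e-10) and 1.68 ± 0.17 (adjusted p 3.67e-06), and chronic 14 d was lower than chronic 24 h by -1.22 ± 0.17 (adjusted p 1.96e-05). Acute 24 h libraries held 189, 133 and 134 CPM, acute 72 h libraries 197, 181, 231 and 256 CPM and acute 7 d libraries 462, 400, 395 and 451 CPM. Acute 24 h libraries did not overlap with healthy, but the change was below 2-fold. The later 2 groups were called, with 1.35 ± 0.17 (adjusted p 6.39e-06) and 2.33 ± 0.18 (adjusted p 1.32e-08). Dkk3 was also higher at acute 7 d (1.49 ± 0.19, adjusted p 2.31e-06) and chronic 24 h (2.06 ± 0.20, adjusted p 1.68e-07) than at acute 24 h.

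Sfrp1, a soluble Wnt antagonist, was lowest at acute 24 h. Healthy libraries held 20.4, 41.0, 69.8 and 18.3 CPM and acute 24 h libraries 8.63, 4.94 and 3.86 CPM (-2.68 ± 0.46, adjusted p 8.66e-05). Acute 7 d libraries held 53.1, 43.2, 83.3 and 74.3 CPM and chronic 24 h libraries 50.5, 52.5, 68.8 and 71.2 CPM. Both overlapped with healthy and lay above acute 24 h, by 3.45 ± 0.47 (adjusted p 5.63e-06) and 3.39 ± 0.47 (adjusted p 1.98e-05). Chronic 72 h libraries, with 91.9, 81.2, 133 and 127 CPM, lay above all healthy ones (1.54 ± 0.39, adjusted p 0.0062), and chronic 14 d libraries, with 59.9, 92.4, 126 and 51.4 CPM, did not. Acute 72 h libraries held 17.3, 22.2, 27.5 and 45.7 CPM and were not called against healthy. Its relatives were scarce. Sfrp2 had no count at acute 24 h. It had 8, 21, 7 and 36 counts at acute 7 d and 4, 13, 13 and 18 counts at chronic 24 h. These means were at least 16.2-fold (adjusted p 0.0036) and 14.1-fold (adjusted p 0.00927) higher than 3 counts over the acute 24 h group would give. The second was not called in the higher-depth libraries alone (adjusted p 0.058). Sfrp5 was counted in acute 7 d replicates 2 to 4 (29, 35 and 13 counts) and in 1 chronic 72 h library (3 counts) and nowhere else. Its acute 7 d mean, with replicate 1 at 0, was at least 23.1-fold higher than in healthy libraries (adjusted p 0.0276). Against acute 24 h libraries the mean was at least 17.6-fold higher (adjusted p 0.0292). Sfrp5 had enough counts to be tested only through the acute 7 d libraries, and without replicate 2, 3 or 4 it was not tested. Both calls are therefore not independent of that selection. DESeq2 gave adjusted p 0.41 and 0.38 for these, and both were lost when certain single libraries were left out (healthy replicate 1, 2 or 3 for the first and any acute 24 h library for the second). Sfrp4 was found in 13 libraries at up to 1.48 CPM and was never called.

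**Figure D5:**
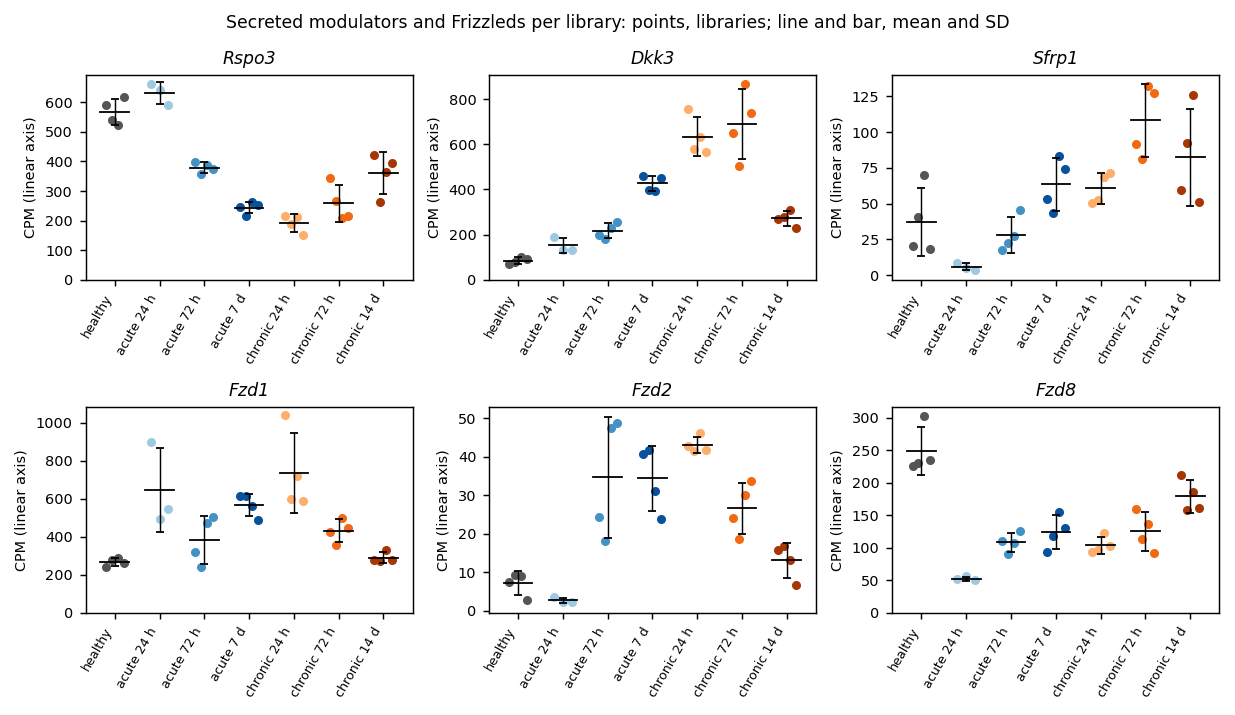
CPM (linear axes) of Rspo3, Dkk3, Sfrp1, Fzd1, Fzd2 and Fzd8 in each of the 27 libraries by group, with the mean as a line and the SD as a bar. Rspo3 lies at 523 to 619 CPM in healthy and 150 to 216 CPM in chronic 24 h libraries, Dkk3 at 69.3 to 102 and 566 to 755 CPM, and Fzd8 at 49.5 to 55.8 CPM at acute 24 h.

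Beyond the ligands, receptors and modulators, 86 genes in 8 lists, some of them in 2 lists, cover the rest of the pathway, and 75 of them were tested. In chronic 24 h against healthy 14 were higher and 6 lower (26.7%, beside 19.3% of all genes), and in acute 24 h against healthy 8 were higher and 16 lower (32%, beside 22%). Counts of single lists stand beside the shares of all genes by direction. These were 11.2% higher and 8.11% lower at chronic 24 h, and 9.41% higher and 12.5% lower at acute 24 h. Of 8 tested co-receptors, 3 were higher at chronic 24 h, namely the Wnt5a receptor Ror1 (17.0 CPM ± 4.02 in healthy and 118 ± 33.3 in chronic 24 h libraries, log2 fold change 2.79 ± 0.31, adjusted p 4.4e-07), Ror2 (2.05 ± 0.47, adjusted p 0.0018) and Ptk7 (1.59 ± 0.18, adjusted p 5.9e-07). None was lower. Ror1 was also higher at acute 24 h (1.70 ± 0.32, adjusted p 0.00023), as was Mcam (2.14 ± 0.36, adjusted p 7.1e-05), whereas Ror2 was lower (-1.45 ± 0.56, adjusted p 0.049), a call that was lost without healthy replicate 1 or 3 or acute 24 h replicate 1 or 3 (adjusted p 0.099 to 0.21). Of the 4 tested R-spondin receptors and ligases, Lgr6 was higher at chronic 24 h (0.112 CPM ± 0.131 in healthy and 1.84 ± 0.41 in chronic 24 h libraries, 3.92 ± 0.95, adjusted p 0.0027) and none was called at acute 24 h. Lgr5 had too few counts for the test, with 19 at most over the libraries of a group.

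Among genes for the secretion and carriage of Wnts, 2 of 8 were higher and 3 lower at chronic 24 h (beside 11.2% and 8.11% of all genes), including the proteoglycans Sdc1 (2.48 ± 0.47, adjusted p 0.00033) and Gpc4 (-1.66 ± 0.18, adjusted p 1.8e-07) and the acyltransferase Porcn, which lipidates Wnts (-1.32 ± 0.31, adjusted p 0.0021). The last was not called in the higher-depth libraries alone. At acute 24 h 1 was higher and 3 lower (beside 9.41% and 12.5% of all genes), with Tpst2 at 1.85 ± 0.24 (adjusted p 3.2e-06), Gpc6 at -1.62 ± 0.25 (adjusted p 3.3e-05) and Notum, which removes the Wnt lipid, at 0 counts and at least 11.7-fold lower than in healthy libraries (adjusted p 0.00013). Of 6 tested genes for other secreted or surface modulators, 3 were higher at chronic 24 h, namely Tpbg (3.88 ± 0.54, adjusted p 7.2e-06), Apcdd1 (2.32 ± 0.73, adjusted p 0.018, lost without healthy replicate 3) and Frzb, a soluble Wnt binder (1.99 ± 0.15, adjusted p 1.2e-09). Tpbg (3.06 ± 0.55, adjusted p 0.00014) and Frzb (2.20 ± 0.16, adjusted p 1e-09) were also higher at acute 24 h, and Igfbp4 was lower there (-2.33 ± 0.29, adjusted p 2e-06).

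Of the 15 cytoplasmic and 12 nuclear genes of the canonical branch that were tested, Apc2, a relative of the tumour suppressor Apc, was the only one called at chronic 24 h (-1.18 ± 0.33, adjusted p 0.0088), with a change below 2-fold without healthy replicate 3 (-0.91). At acute 24 h Axin2 (-2.36 ± 0.66, adjusted p 0.0074) and Apc2 (-2.20 ± 0.38, adjusted p 9.9e-05) were lower and Dvl1 higher (1.97 ± 0.60, adjusted p 0.013, lost without acute 24 h replicate 3) among 15 cytoplasmic genes, beside 22% of all genes called. Of 12 nuclear genes 4 were lower there (beside 12.5% of all genes), led by Pygo1 (-3.05 ± 0.26, adjusted p 2e-08), Tcf7l2 (-1.48 ± 0.20, adjusted p 6.2e-06) and Tle2 (-1.36 ± 0.29, adjusted p 0.00071). Of 15 genes of the polarity and calcium branches, the small GTPase gene Rhou was higher (1.89 ± 0.33, adjusted p 0.00013) and Prickle2 lower (-1.09 ± 0.26, adjusted p 0.0023) at chronic 24 h, the latter below 2-fold without healthy replicate 2 (-0.98) and in the higher-depth libraries alone (-0.91). Of all genes 19.3% were called at that time. At acute 24 h 4 of the 15 were lower (beside 12.5% of all genes), among them Celsr1 (0 counts, at least 10.5-fold lower, adjusted p 0.015), Nfatc2 (-2.63 ± 0.88, adjusted p 0.024, lost without healthy replicate 2 or acute 24 h replicate 1 or 2) and Daam2 (-1.29 ± 0.22, adjusted p 8.6e-05).

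Genes known as targets of the canonical branch did not move as 1 group. Of 14 tested, 5 were higher (Nkd2, Apcdd1, Tnfrsf19, Ccn4 and Myc) and 1 lower (Nkd1) at chronic 24 h, and 2 were higher (Ccn4 and Myc) and 3 lower (Axin2, Notum and Dact1) at acute 24 h. Of all genes, 11.2% were higher and 8.11% lower at chronic 24 h, and 9.41% higher and 12.5% lower at acute 24 h. Both calls of Myc were lost when 1 of several libraries was left out, with adjusted p up to 0.23 at chronic 24 h without replicate 3 of that group and up to 0.26 at acute 24 h without replicate 2 of that group. The feedback gene Axin2 held 5.49 CPM ± 2.89 (n = 4) in healthy, 3.17 ± 1.93 (n = 4) in chronic 24 h and 1.06 ± 1.02 (n = 3) in acute 24 h libraries. Against healthy it was called at acute 24 h only, but not in a fit of those 2 groups alone (-2.28, adjusted p 0.11). It was also called higher in acute 7 d than in acute 24 h libraries. Nkd1, another feedback inhibitor, held 454 CPM ± 24.3 in healthy and 203 ± 18.1 in chronic 24 h libraries (-1.16 ± 0.16, adjusted p 4.6e-06) and was not called at acute 24 h (292 ± 55.5 CPM). Its relative Nkd2 went the other way at chronic 24 h, from 2.56 CPM ± 0.653 to 47.7 ± 26.1 (4.22 ± 0.39, adjusted p 3.1e-08). Lef1 held 0.977 CPM ± 0.321 in healthy and 0.529 ± 0.549 in chronic 24 h libraries. It was never called against healthy, but was called higher in chronic 14 d than in chronic 24 h libraries. Tnfrsf19 was higher at chronic 24 h (3.19 ± 1.14, adjusted p 0.037), a call that was lost without healthy replicate 1, 2 or 4 or chronic 24 h replicate 1 or 4, and Ccn4, which encodes a matricellular protein, was higher at acute 24 h (1.39 ± 0.25, adjusted p 0.00013).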

How the data were processed

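Per the labels and the study's methods, single-end reads of 75 bp were checked and trimmed (FastQC), mapped by STAR against GRCm38.p6 and passed to StringTie. What the authors deposited is a table of raw counts, in whole numbers for each Ensembl gene, without normalization. Versions, strand setting and annotation release are not given in the sources used here. GENCODE M21 gave symbols, positions and exon lengths for 53274 of the 53379 gene IDs, and RefSeq the promoters. All columns were matched, leaving 0 unmatched.

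Tests used edgeR 4.0.16 with limma 3.58.1 under R 4.3.3 (filterByExpr by group, TMM scaling, robust quasi-likelihood fit with 1 mean per group over all 27 libraries). The 18758 genes tested were adjusted together by Benjamini-Hochberg in each of the 9 comparisons, and tests were 2-sided. Libraries were grouped by their labels. Bounds against groups at 0 set the mean of the other group against 3 counts over the group at 0. They cover counting error in the group at 0 only and leave out the spread of the other group. Members and lists were chosen with earlier results of these data known. All members could be named, those called with values in the libraries compared, plus Axin2, Lef1, Nkd1, Lgr5, the activation genes Acta2 and Col1a1, the stellate genes Des, Lrat, Reln and Rgs5, and up to 3 called genes of each list with the highest absolute log2 fold change at chronic 24 h and at acute 24 h. Fbxl14, Myc and Dact1 were named after their values were seen. The other lists of cell markers (macrophage, cholangiocyte, smooth muscle, T and NK cell, B cell and neutrophil) served as checks of the samples. Replicate numbers were checked for pairing, which the same-number correlations did not establish. Alternatives were DESeq2 1.42.0, its size factors, library size alone, no filter, a mean of 1 CPM, an adjusted p of 0.1, no fold minimum, a replicate block, depth class as a term, libraries over 9 M counts, a fit of the compared groups only, exon length from the longest transcript, and each library left out in turn. The procedure was tested on simulated data. Tables and plots were made by matplotlib 3.10.9 and pandas 2.3.3 in Python 3.11.15.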

Additional observations from a re-analysis of the deposited data

Results flagged for a closer look

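Single libraries stood apart from the other 3 of their group in 9 of the 121 groups of 4 examined for the members, and for spread-out values chance gives about 1 in 20. Fzd1 held 330 CPM in chronic 14 d replicate 3 and 272 to 279 CPM in the others, and Fzd8 held 304 CPM in healthy replicate 3 and 226 to 235 CPM in the others. In the other 7 groups 1 library held counts and the others none, which marks a library whatever its count, so the chance rate does not apply to them. These were Rspo1 with 0.926 CPM in healthy replicate 3 and 0.155 CPM in acute 72 h replicate 4, and Rspo2 with 1.09 CPM in healthy replicate 1, 0.812 CPM in acute 72 h replicate 3 and 0.155 CPM in chronic 72 h replicate 3. The last 2 were Sfrp2 with 0.851 CPM in acute 72 h replicate 4 and Sfrp5 with 0.235 CPM in chronic 72 h replicate 4.

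Levels 24 h after injury differed between repeated and single injection for 13 members, where 13.9% of all genes were called. This was the direct test of chronic 24 h against acute 24 h with edgeR. Log2 differences were 4.54 for Wnt5a, 1.48 for Wnt5b, 6.08 for Wnt6, 3.25 for Wnt11, 1.16 for Wnt4, 4.02 for Fzd2, 2.13 for Fzd6, 1.79 for Fzd7, 3.39 for Sfrp1, 6.73 for Sfrp2 and 2.06 for Dkk3, and they were -1.07 for Fzd5 and -1.72 for Rspo3. The values of Wnt6 and Sfrp2 rest on an acute 24 h group with no counts. Calls of Wnt4, Wnt5b, Wnt11, Fzd5, Fzd6 and Sfrp2 were lost under at least 1 alternative. In this comparison 7 of 11 macrophage, 5 of 10 hepatocyte, 5 of 8 portal fibroblast and 3 of 6 cholangiocyte markers were higher. So were 4 of 4 B cell, 3 of 5 tested mesothelium and 3 of 13 endothelial markers, with 1 endothelial marker lower. Their part in the member differences was not tested.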

How the results depend on the processing

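Of the 83 member calls in the 9 comparisons, 59 were kept under every alternative in which the member was tested. Another 24 were lost under at least 1, and 0 changed direction. The number of members called in chronic 14 d against healthy, 5, became 8 with DESeq2, 8 at an adjusted p of 0.1 and 3 in a fit of the compared groups only. The separate fit of acute 24 h and healthy libraries only, which tested 18 members, lowered acute 24 h against healthy from 7 to 3. With 1 library left out at a time, the members called against healthy numbered 9 to 11 at chronic 24 h, 10 to 12 at chronic 72 h, 4 to 6 at chronic 14 d, 5 to 8 at acute 24 h, 4 to 6 at acute 72 h and 10 to 13 at acute 7 d. They numbered 3 to 6 in chronic 14 d against chronic 24 h (3 without chronic 14 d replicate 3), 13 to 18 in acute 7 d against acute 24 h and 8 to 14 in chronic 24 h against acute 24 h (8 without acute 24 h replicate 3). The chronic 72 h range lies above the full count of 9, where Fzd7 (log2 fold change 1.00, adjusted p 0.00344) and Fzd8 (-0.99, adjusted p 0.000222) were just under 2-fold. Scaling by library size alone moved the median of all genes by 0.17 in chronic 14 d against healthy. At acute 24 h the fit of the compared groups did not call Wnt2 (adjusted p 0.11), Wnt5a (0.064) and Fzd2 (0.056) and did not test Wnt6. The libraries over 9 M counts alone also did not call Wnt2 at acute 24 h against healthy, Wnt9b and Rspo1 at acute 7 d against acute 24 h, and Fzd5 at chronic 24 h against acute 24 h (adjusted p 0.062 to 0.091). That fit could not be made for chronic 14 d, which has none. Genes at a few counts, such as Sfrp5, Rspo1, Rspo2 and Wnt11 at chronic 14 d, are limited by depth.

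Replicate numbers did not establish pairs, since the deviations of the 78 pairs of libraries with the same number correlated at -0.17 to 0.19, with 15 pairs over 0.1, and 8 of 27 libraries correlated best with their own number. With the replicate block, the members called were 9 at chronic 24 h, 9 at chronic 72 h, 5 at chronic 14 d, 6 at acute 24 h, 4 at acute 72 h and 12 at acute 7 d against healthy, 4 in chronic 14 d against chronic 24 h, 15 in acute 7 d against acute 24 h and 12 in chronic 24 h against acute 24 h.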
